A study of Mus musculus with 2 samples.

Results

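Chemokines are small secreted proteins that guide leukocytes, and their receptors are G protein-coupled receptors on the cells that follow them. The names record the spacing of the first cysteines of the ligand (CC, CXC, XC or CX3C), and a receptor is named for the class of ligand it binds. In T cells the receptors mark where a cell can go, while the ligands a T cell makes recruit other cells. Here the genes of this system were followed in CD5-positive gamma delta T cells of mouse spleen, from wildtype mice and from mice with the LAT3YF allele. LAT is a membrane adaptor that becomes phosphorylated on tyrosines after T cell receptor engagement and recruits signalling enzymes, and in the 3YF form tyrosines are replaced by phenylalanine. CD5 is the T cell glycoprotein through which the cells were captured on magnetic beads before flow sorting.

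The members were all genes whose annotated symbol begins with Ccl, Cxcl, Xcl or Cx3cl (ligands), or with Ccr and a number, Cxcr, Xcr or Cx3cr (receptors), except Ccr6. The rule found 47 genes, 32 ligands and 15 receptors, among 4331 genes with a probe of their own. Each of the 47 was measured by a single probe. A further probe was annotated to Ccl21a together with another gene and was left out of all counts. Ccl21b and Ccl27a have near-identical copies in the mouse genome, so their probes may also read those copies.

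Both populations were hybridised together on each of 2 arrays, with the dyes reversed between them, and the labels call the arrays + polarity and - polarity. The labels name no separate mice or RNA preparations behind the arrays, and no strain, age or number of mice, so the pair was counted as 1 replicate and no test of the genotypes was made. Values are the deposited log ratios of the populations after the sign of the - polarity array was turned. No source used here states the base of the logarithm, which was taken as 10, and every fold below assumes it. Means are given with the SD of the 2 arrays, which covers technical error only. A positive value stands for more transcript in 1 population throughout and a negative value for more in the other, and the sources used here do not say which of these is LAT3YF, so every statement on sides can be read with the populations exchanged. A gene was called when its mean was at least 2-fold (0.301 on the log10 scale) with the same sign on both arrays, which is a rule of size and not a test. Because the cells were analysed in bulk, fewer cells of a type and less RNA per cell cannot be told apart.

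Of the 47 genes, 10 were called, 6 of them positive and 4 negative. This was 21.3% of the chemokine system, against 8.75% of all 4331 genes and 8.61% of the genes outside the system. The positive genes were the ligands Ccl1, Ccl8, Ccl5 and Cxcl13 and the receptors Cxcr5 and Ccr2, where the share of all genes called positive was 3.72%. The negative genes were the ligands Cxcl2 and Ccl6 and the receptors Ccr7 and Ccr9, where the share of all genes was 5.03%. The genes thus lay on both sides, and the median over the 47 was -0.0115, beside 0.0023 over all genes. Demanding 2-fold on each array on its own left 7 of the 10 called members, and Ccr2, Cxcl13 and Ccr9 dropped out. Over all genes it left 272 of the 379 called genes, which was 6.28% of the 4331.

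**Figure D1:**
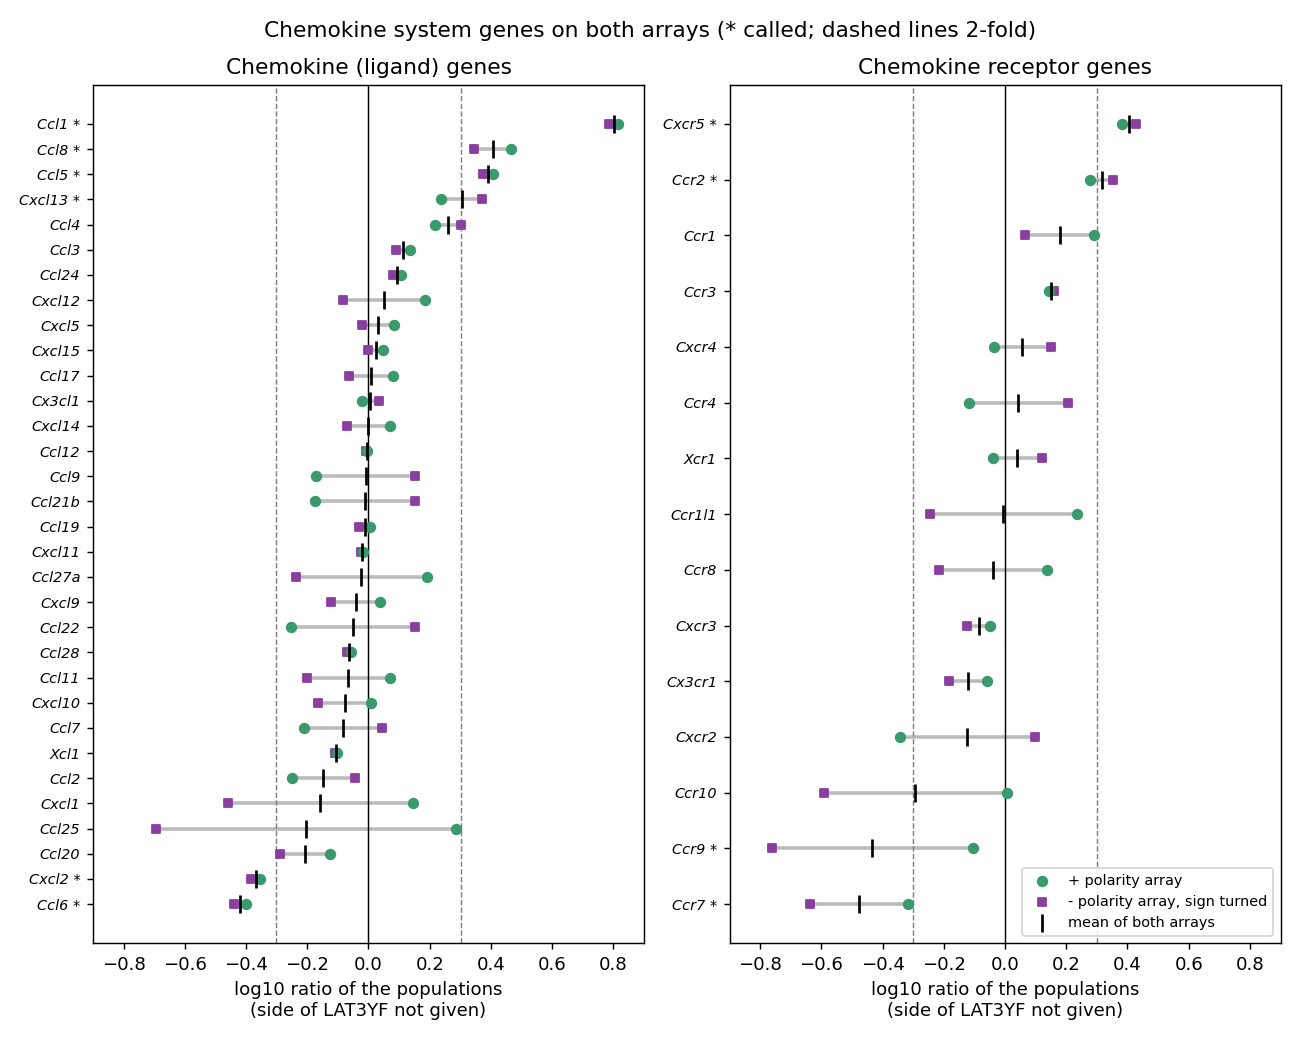
Log10 ratio of each ligand gene (left) and receptor gene (right) with + polarity (green circles) and with - polarity after the sign was turned (purple squares), with the mean as a black tick and 2-fold marked by dashed lines. Ccl1 stands apart at 0.801 with its arrays nearly on top of each other, whereas Ccl25 and Ccr9 spread over a wide range.

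Ccl1 had the highest value of the system. Activated T cells make this ligand of the receptor CCR8. Its log10 ratio was 0.815 with + polarity and 0.787 with - polarity, in the order kept below for each pair of values, a mean of 0.801 ± 0.0201 (6.32-fold). By its mean it was number 16 from the top among the 4331 genes. Ccl8, which in mice is also a ligand of CCR8, was at 0.466 and 0.345, a mean of 0.405 ± 0.0861 (2.54-fold). Ccl1 and Ccl8 thus lay past 2-fold on each array, and their spread between the arrays was small beside the mean. These genes lie next to each other in the mouse genome (GRCm38.p6), so the 120 bases before each start site are shown (RefSeq, written 5′ to 3′ on the gene's own strand), with TATAAA in capitals where it occurs.
Ccl1 (chr11:82179813-82179932, minus strand): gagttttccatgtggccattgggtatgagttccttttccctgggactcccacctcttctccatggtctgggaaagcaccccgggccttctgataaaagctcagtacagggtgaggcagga
Ccl8 (chr11:82115065-82115184, plus strand): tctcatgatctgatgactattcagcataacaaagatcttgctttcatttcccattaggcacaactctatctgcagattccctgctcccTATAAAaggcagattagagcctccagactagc
The exact letters TATAAA occur before the Ccl8 start and not in the Ccl1 window. Near matches, such as gataaaag in the Ccl1 window, were not marked. Any link between these letters and the ratios was not tested.

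The 3 receptors of effector T cells included no called gene, beside 8.75% of all genes, and 3 genes are too few to set against that share. Ccr8, the receptor of Ccl1 and Ccl8, was at 0.138 and -0.216, so its signs were opposite and its mean of -0.0393 ± 0.25 was smaller than the spread. Ccr4, the receptor of type 2 and skin-homing T cells, was at -0.117 and 0.204 (mean 0.0435 ± 0.228). Its ligands Ccl17 (0.0787 and -0.0624) and Ccl22 (-0.253 and 0.151) also changed sign between the arrays. No direction can be given for Ccr8, Ccr4, Ccl17 or Ccl22 from this pair of arrays. Cxcr3, the receptor of type 1 effector T cells, was below 0 on both arrays, at -0.0487 and -0.125 (mean -0.0869 ± 0.0539), and was not called. Its interferon-induced ligands Cxcl9, Cxcl10 and Cxcl11 had means below 0, at -0.0417, -0.0778 and -0.0217. Of these, Cxcl11 alone was below 0 on both arrays, while Cxcl9 was at 0.0376 and -0.121 and Cxcl10 at 0.00926 and -0.165.

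The inflammatory CC ligands Ccl5, Ccl9, Ccl6, Ccl3 and Ccl4 are neighbours in the genome. Ccl5, a chemokine of cytotoxic and memory T cells, was at 0.406 and 0.376 (mean 0.391 ± 0.0211, 2.46-fold). Ccl4 and Ccl3, which activated T cells and macrophages release, had the same sign but were not called. Ccl4 was at 0.216 and 0.304 (mean 0.26 ± 0.0619, 1.82-fold) and Ccl3 at 0.136 and 0.0893 (mean 0.113 ± 0.0333, 1.30-fold). Ccl6, a rodent chemokine made mainly by myeloid cells, went the other way at -0.4 and -0.441 (mean -0.421 ± 0.0289, 2.63-fold). Ccl9, its relative, was at -0.172 and 0.153 and had no steady sign. In this group of 5 ligands, 4 had the same sign on both arrays, 3 of these positive and 1 negative. Over all genes 59.6% had the same sign, and 5 genes are too few to set against that share. Ccr1, a receptor that binds several of them, was at 0.291 and 0.0654 (mean 0.178 ± 0.159), so its mean came mainly from the + polarity array, and the related Ccr1l1 was at 0.234 and -0.246.

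The ligands of CCR2 and CCR3 included no called gene, beside 8.75% of all genes, and 5 genes are too few to set against that share. Of these 5 genes, which attract monocytes and eosinophils, 1 had a mean above 0 and 4 below. Ccl24, an eosinophil attractant, was positive at 0.106 and 0.0803 (mean 0.0931 ± 0.0181). Ccl2, the main monocyte attractant, was at -0.249 and -0.0449 (mean -0.147 ± 0.145), a mean about as large as its spread. Ccl12 was close to 0 at -0.00584 and -0.00685, while Ccl7 (-0.212 and 0.0445) and Ccl11 (0.0709 and -0.202) changed sign. Their receptors lay on the positive side on both arrays. Ccr2, the monocyte receptor that some gamma delta T cells also carry, was at 0.279 and 0.352 (mean 0.315 ± 0.0519, 2.07-fold), just past the threshold and below 2-fold on the + polarity array. Ccr3, the eosinophil receptor, was at 0.143 and 0.16 (mean 0.152 ± 0.0123) and was not called.

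Among the neutrophil-attracting CXC ligands, Cxcl2 was the called gene, at -0.353 and -0.384 (mean -0.369 ± 0.0217, 2.34-fold). Its neighbour Cxcl1 was at 0.146 and -0.461 (mean -0.157 ± 0.429), and the half-difference between its arrays was 2.01-fold. Thus Cxcl2 was negative and past 2-fold on each array, and Cxcl1 only on the - polarity array. Cxcl5 (0.0827 and -0.0197) and Cxcl15 (0.0489 and a deposited value of exactly 0) lay near 0. Cxcr2, the neutrophil receptor of these ligands, was at -0.344 and 0.0974 (mean -0.123 ± 0.312). The promoters of Cxcl1 and Cxcl2 are shown with that of Ccl20, an epithelial chemokine that was below 0 on both arrays (-0.127 and -0.288, mean -0.208 ± 0.114). These windows hold matches to a binding motif of the inflammatory transcription factor NF-kappaB, searched on both strands as GGG, any 2 bases and TTTCC. Each window is the 120 bases before the start site (RefSeq, GRCm38.p6), with the matches in capitals.
Cxcl2 (chr5:90903779-90903898, plus strand): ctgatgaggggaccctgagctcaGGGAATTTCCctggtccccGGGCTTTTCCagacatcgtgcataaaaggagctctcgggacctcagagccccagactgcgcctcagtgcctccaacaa
Cxcl1 (chr5:90891125-90891244, plus strand): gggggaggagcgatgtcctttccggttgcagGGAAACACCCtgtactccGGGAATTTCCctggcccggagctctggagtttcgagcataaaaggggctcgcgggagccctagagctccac
Ccl20 (chr1:83116646-83116765, plus strand): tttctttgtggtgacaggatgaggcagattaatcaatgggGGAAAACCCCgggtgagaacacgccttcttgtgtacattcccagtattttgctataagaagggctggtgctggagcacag
Cxcl2 and Cxcl1 share the letters GGGAATTTCC, and each holds a further match, while Ccl20 holds 1.

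Promoter sequences of 36 of the 47 genes were found, 39 windows of 300 bases from 250 before to 50 after the start site. The NF-kappaB motif was present in 5 of the 39 (12.8%), against 1.63% of all 32851 windows of that length. The 5 genes were Cxcl2, Cxcl1, Ccl20, Ccl9 and Ccr3, and their means ran from -0.369 to 0.152, with 4 below 0 and 1 above. Of these 5 genes, 3 had the same sign on both arrays and 1 was called. Cxcl2 and Ccl20 were below 0 on both arrays and Ccr3 above, while Cxcl1 and Ccl9 had opposite signs. TATAAA, also searched on both strands, was in 28.2% of the 39 windows and 13.6% of all windows. The AP-1 motif TGANTCA, which reads the same on both strands, was in 20.5% and 7.81%. The marked matches did not overlap in the windows shown. A match describes the letters only, and binding was not measured here.

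Homeostatic and epithelial ligands organise lymphoid tissue and barrier surfaces. Of 9 such genes, 6 had opposite signs on the arrays (66.7%), beside 50% of the 32 ligands and 39.9% of all genes. This difference was not tested. Cxcl13, the chemokine of B cell follicles, was the called gene, at 0.238 and 0.372 (mean 0.305 ± 0.0945, 2.02-fold), barely past the threshold and below 2-fold on the + polarity array. Ccl28, a mucosal chemokine, was at -0.0584 and -0.0711. Ccl25, the thymic and intestinal ligand of CCR9, had the widest spread of the system, at 0.285 and -0.695 (mean -0.205 ± 0.693). Also without a steady sign were Cxcl12 (0.184 and -0.0849), Cxcl14 (0.0701 and -0.0709), Ccl27a (0.19 and -0.238), Ccl21b (-0.174 and 0.151) and Ccl19 (0.00449 and -0.0295). Xcl1, which attracts cross-presenting dendritic cells, was at -0.104 and -0.108 (mean -0.106 ± 0.00255, 1.28-fold). Its receptor Xcr1 was at -0.0408 and 0.121, and the membrane-bound ligand Cx3cl1 at -0.0218 and 0.0337.

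The largest receptor values were those of the homing receptors, and they lay on both sides. Cxcr5, which leads cells into B cell follicles, was at 0.382 and 0.428 (mean 0.405 ± 0.0323, 2.54-fold), past 2-fold on each array. Ccr7, which leads naive cells into lymph nodes and the white pulp, was at -0.317 and -0.638 (mean -0.478 ± 0.227, 3.004-fold), the lowest mean of all 47. Both arrays put Cxcr5 and Ccr7 past 2-fold on opposite sides, though the size for Ccr7 differed between 2.08-fold and 4.35-fold. Ccr9, the gut and thymus homing receptor, was at -0.106 and -0.761 (mean -0.434 ± 0.463), and its call rested on the - polarity array. Ccr10, a receptor of skin and mucosal lymphocytes, was at 0.00513 and -0.592 (mean -0.293 ± 0.422), 1.96-fold with no steady sign. Cxcr4, which retains cells in the bone marrow, was at -0.0371 and 0.15. Cx3cr1, a receptor of patrolling monocytes and cytotoxic lymphocytes, was at -0.0597 and -0.183 (mean -0.121 ± 0.0872) and was not called.

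Ligands and receptors did not separate as classes. Of 32 ligands, 4 were called positive and 2 negative (18.8% in all), and of 15 receptors 2 positive and 2 negative (26.7%). The share of all genes called was 8.75%. The median was -0.012 over the ligands and -0.0056 over the receptors, a difference (ligands minus receptors) of -0.0064. The + polarity array alone gave a difference of 0.0803 and the - polarity array alone one of -0.093, so its sign depended on the array. The receptors had larger values and larger spreads than the ligands, with a median size of 0.123 against 0.0718 and a median SD of 0.159 against 0.0903. Over all genes the median size was 0.0732 and the median SD 0.0579. No test was made of these differences between genes.

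The arrays disagreed on the sign of many of these genes. Signs were the same for 23 of the 47, opposite for 23, and Cxcl15 had a value of 0 on one array. The share with the same sign was 48.9%, against 59.6% of all genes. Opposite signs were found for 16 of 32 ligands and 7 of 15 receptors, against 39.9% of all genes. In the half-difference of the arrays, which holds any dye effect together with the error of the single arrays, 24 of 32 ligands were positive and 8 negative. The receptors split into 8 positive and 7 negative, and all genes into 2171 positive and 2159 negative. For Ccl25 this half-difference was 3.09-fold and larger than its mean. It was also past 2-fold with opposite signs for Cxcl1, so 2 of the 47 genes (4.26%) met that condition, beside 4.11% of all genes. Of the 10 called genes, 7 were past 2-fold on each array, namely Ccl1, Ccl8, Ccl5, Cxcr5, Cxcl2, Ccl6 and Ccr7.

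**Figure D2:**
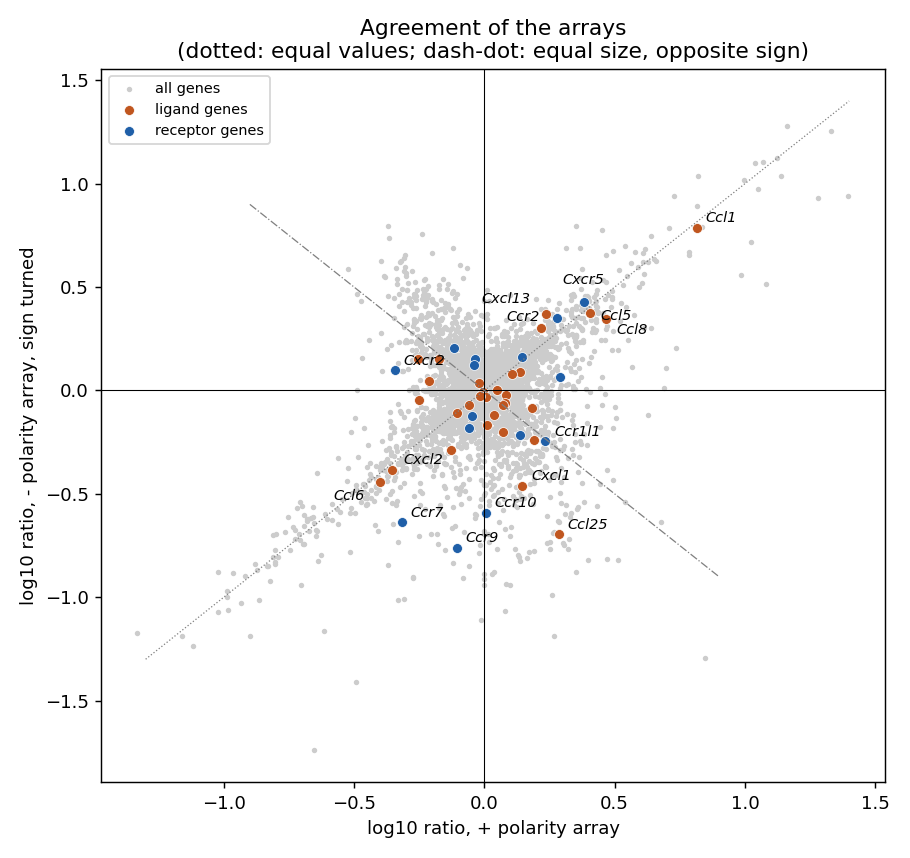
Log10 ratio on the + polarity array (x axis) against the - polarity array after its sign was turned (y axis) for all 4331 genes (grey), ligand genes (orange) and receptor genes (blue). Ccl1, Ccl5, Cxcr5, Cxcl2 and Ccl6 lie close to the line of equal values, while Ccl25, Cxcl1 and Ccr1l1 lie at the lower right, where the arrays have opposite signs.

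Receptors were then set beside their known ligands. Both partners were measured for 29 pairs, made of 14 receptors and 28 ligands. Most receptors stand in more than 1 pair, so the pairs are not independent. The means lay on the same side in 16 pairs and on opposite sides in 13. Where receptor and ligand each had the same sign on both arrays, 8 pairs remained, 5 on the same side and 3 on opposite sides. Cxcr5 and Cxcl13 formed the only pair in which both genes were called, and both were positive. Ccr8 had no steady sign beside its called ligands Ccl1 and Ccl8, and Ccr2 was positive beside a negative Ccl2. Ccr7 was called negative while its ligands Ccl19 (-0.0125) and Ccl21b (-0.0115) had means near 0. Ccr9 and Ccl25 both had negative means, and both spreads were larger than the means.

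**Figure D3:**
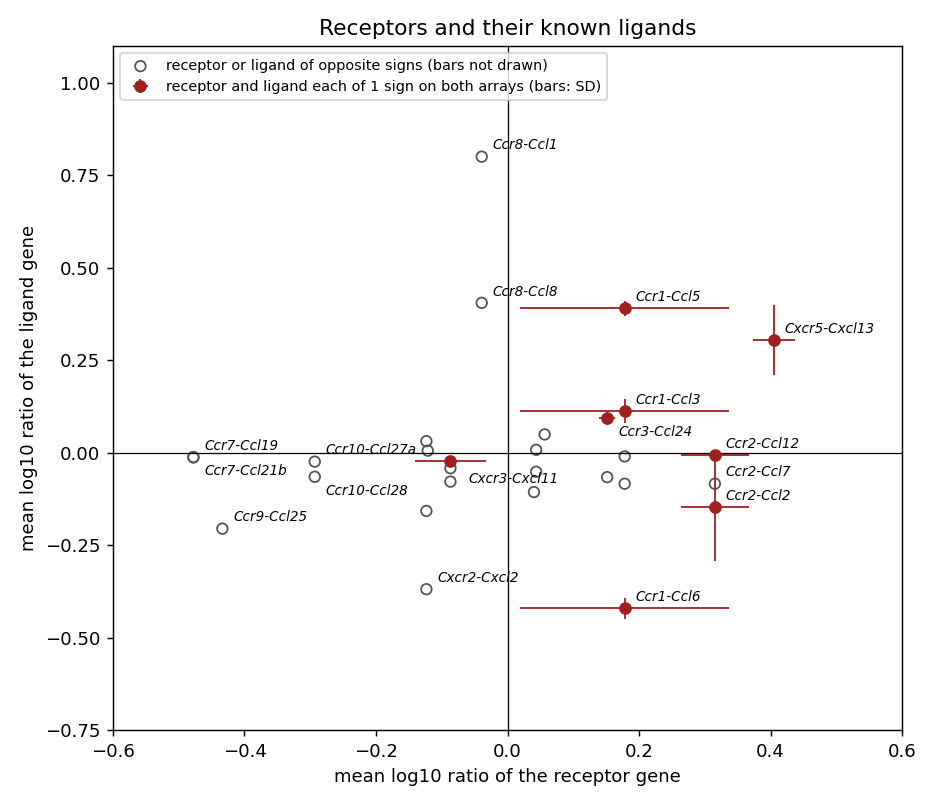
Mean log10 ratio of each receptor gene (x axis) against that of a known ligand (y axis) for 29 pairs, with filled points and SD bars over the 2 arrays where both genes had the same sign on both arrays, and open points otherwise. The pair Cxcr5 and Cxcl13 is in the upper right, and Ccr8 sits near 0 beside Ccl1 and Ccl8.

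Many chemokine genes stand in clusters of neighbours, and 27 of the 47 lay in 7 such runs with at most 2 other protein-coding genes between members (gene order of GRCm38.p6). The values were mixed within the runs. In the run Ccl2, Ccl7, Ccl11, Ccl12, Ccl8 and Ccl1, the last pair was called positive and the other 4 genes had means between -0.147 and -0.0063. In the run Ccl5, Ccl9, Ccl6, Ccl3 and Ccl4, Ccl5 was called positive and Ccl6 negative with Ccl9 between them. The receptor run of Ccr9, Xcr1, Ccr1, Ccr1l1, Ccr3 and Ccr2 had Ccr9 called negative at one end and Ccr2 called positive at the other. Neither of the runs Ccl22, Cx3cl1 and Ccl17 or Cxcl9 and Cxcl10 held a gene with the same sign on both arrays. Over all genes 59.6% had the same sign, and these runs are too short to set against that share.

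**Figure D4:**
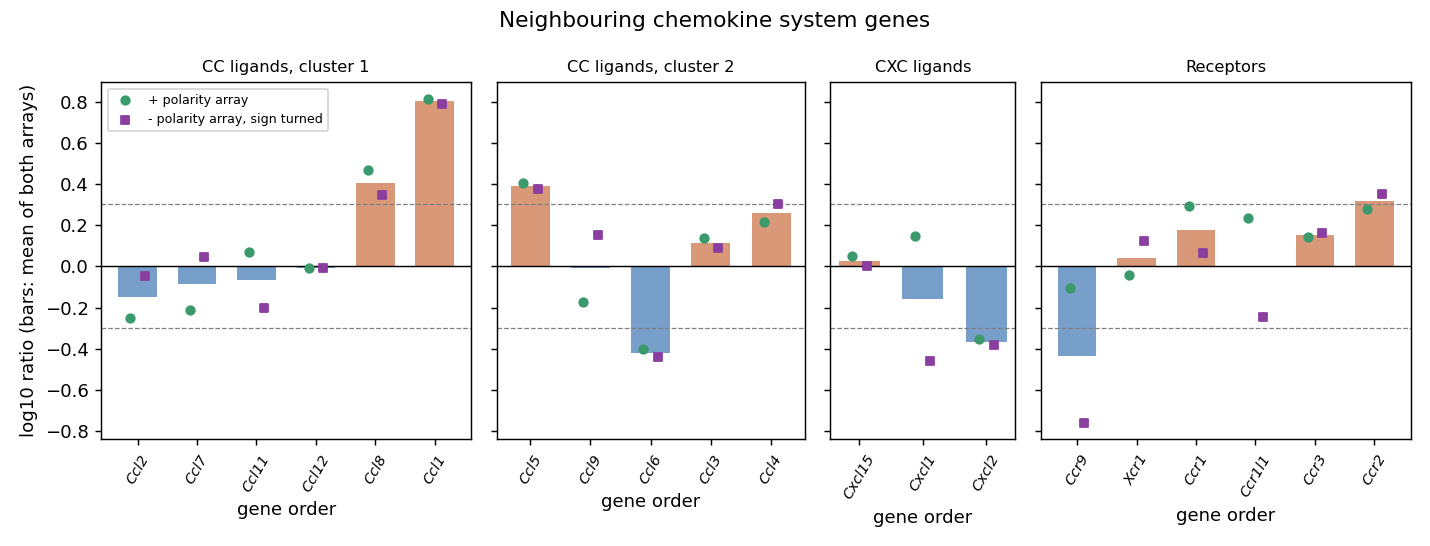
Log10 ratio of neighbouring genes in 4 runs, in gene order, with the mean as a bar, the + polarity array as green circles, the - polarity array after its sign was turned as purple squares, and 2-fold as dashed lines. Ccl8 and Ccl1 lie above the dashed line in the first run, and Ccl5 and Ccl6 lie on opposite sides in the second.

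Genes near the chemokine system but outside its names were taken from lists, which were chosen with earlier results of these data known. Of 7 measured atypical chemokine receptors and chemokine-related genes, none was called, beside 8.75% of all genes. Only Ccrl2, a chemerin-binding receptor, had the same sign on both arrays, beside 59.6% of all genes. It was at -0.187 and -0.246 (mean -0.217 ± 0.0416). These 7 genes are too few to set against the shares. Pf4, a platelet chemokine outside the naming rule, was at 0.294 and -0.543 and had opposite signs. Of 16 genes that carry or limit the signal of chemokine receptors, 15 had the same sign on both arrays, 10 of these positive, beside 59.6% of all genes with the same sign. Of the 16, 2 were called (12.5%, beside 8.75% of all genes), both negative. The called genes were Rgs10 (-0.81 ± 0.0042, 6.46-fold) and Rgs2 (-0.701 ± 0.0356), which shorten G protein signals. The G protein subunit gene Gnai2, through which chemokine receptors act, was at 0.0939 and 0.098 (mean 0.096 ± 0.0029), and Pik3cg, the kinase they activate, at 0.246 and 0.319 (mean 0.283 ± 0.0518). Both lay below the threshold, and they were picked for naming once their values were known. Among 14 other homing and migration genes, Ptger4, a prostaglandin receptor, was called positive (0.372 ± 0.0291) and Fpr2, a formyl peptide receptor, negative (-0.49 ± 0.0439).

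Many markers of several other spleen cell types lay on the negative side, where 5.03% of all genes were called. Of 11 measured macrophage and monocyte markers, 10 were called negative, with a median of -0.922 and means from -1.17 to -0.0221. Of 7 NK cell markers 6 were called negative (median -0.624), of 8 B cell markers 4 (median -0.349), of 4 dendritic cell markers 1 (median -0.212) and of 4 erythroid and platelet markers 2 (median -0.242). The B cell, dendritic cell and erythroid and platelet lists each held 1 marker with a mean above 0. These were Cd22 (0.193), Zbtb46 (0.0225) and Gata1 (0.0685), each positive on both arrays and not called. None of 3 neutrophil markers was called, and their means lay between -0.059 and 0.0351. None of 4 stromal and endothelial markers was called either, with means from -0.25 to 0.0611. The neutrophil list and this list are too short to set against the share of all genes called (8.75%). Of 4 alpha beta T cell markers, the CD8 chain genes Cd8a (-1.20 ± 0.767) and Cd8b1 (-1.18 ± 0.082) were called negative and Zbtb7b positive (0.311 ± 0.0751). The part of these cells in the negative values of Ccl6, Cxcl2, Ccr7 and Ccr9 was not tested. Nor was it tested for the positive values of Ccl1, Ccl8, Ccl5, Cxcl13, Cxcr5 and Ccr2. The bulk values do not show which cells held the marker transcripts. Of 8 general T cell markers, 6 had means above 0, and the capture marker Cd5 was called positive at 0.614 ± 0.0077. The list for gamma delta T cells held 1 measured gene, Sox13, which was positive at 0.465 ± 0.0342. The receptor's constant genes were not analysed here. Both labels name gamma delta T cells, so Sox13 alone gives no count of them.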

How the data were processed

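Total RNA of both populations was hybridised on 2 two-colour arrays with reversed dyes. The deposited table holds log ratios that the authors computed, 1 for each probe on each array, and it was read here as log10. The sources used here do not give the base, numerator, background correction or normalization. Intensities were not analysed here, so dim probes could not be filtered. Precision is limited by the small number of arrays.

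The - polarity array was multiplied by -1, since its label names the populations in the reverse order of the + polarity label. The deposited columns also correlated negatively (r = -0.301 across 8014 probes). Of these probes 4654 had 1 annotated gene, 73 several and 3287 none. Probes of a gene were averaged, giving 4331 genes. All 47 member symbols matched RefSeq (GRCm38.p6). The call rule was tested on simulated data. Every member is named. Of each other list, up to 4 called genes a side or 2 of largest size are named where room allowed. Gnai2, Pik3cg, Cd22, Zbtb46 and Gata1 were named outside this rule. The members, lists, pairs and tests were chosen with earlier results of these data known. Motifs and the role groups were chosen after the values were seen. Alternatives were the threshold, log base, centring, scaling, single arrays and probe choice. Values were computed with Python 3.11.15, pandas 2.3.3 and numpy 2.4.6.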

Additional observations from a re-analysis of the deposited data

How the results depend on the processing

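The counts of called genes, 6 positive and 4 negative, were the same genes with centred arrays, scaled arrays, another choice of probe and probes of several genes added. At 3-fold 1 positive (Ccl1) and 1 negative (Ccr7) gene remained (3.32% of all genes were called), and at 1.5-fold 13 members were called, with Ccl4, Ccr1 and Ccl20 added (17.9% of all genes). If the deposited values were log2, 0 positive and 0 negative members would be called (0.393% of all genes) and Ccl1 would be 1.74-fold. As natural logs, 1 positive (Ccl1) and 0 negative would be (1.43% of all genes). Leaving out 1 array gave between 4 and 7 positive calls, between 4 and 7 negative calls, a ligand median between -0.0276 and 0.0432 and a receptor median between -0.0371 and 0.0654, so both medians changed sign. The - polarity array alone added Ccl25, Ccl4, Ccr10 and Cxcl1 (17.1% of all genes called), and the + polarity array alone lost Ccr2, Ccr9 and Cxcl13 and added Cxcr2 (10.4% of all genes called). The cause was not tested. Each ratio already compares the populations within 1 array. No further paired analysis was possible because the 2 arrays were counted as 1 replicate. No filter on low signals could be tried, since the values are ratios.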
